A study of Mus musculus with 11 samples.

Results

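The genes described here belong to the skeletal muscle fibre and were followed through 11 RNA-sequencing libraries of mouse airway tissue. They are 10 of the 21899 genes that the file lists, namely Acta1, Ckm, Tnnt3, Mybpc1, Mybpc2, Myh1, Myh2, Myh4, Actn3 and Pvalb. The genes were selected by name, as genes that report striated muscle content, with earlier values of these same libraries in view, so their levels are given as a description, with no test. All animals were WT male BALB/c mice, 6 to 8 weeks of age, and tissue was taken on day 25. The PBS group (n = 3, libraries PBS1 to PBS3) was not sensitised and was given PBS alone. The OVA/LPS/Vehicle group (n = 4, labelled OL12, OL34, OL56 and OL78) was sensitised with ovalbumin (OVA) in alum by injection into the peritoneum, challenged with OVA through the nose, then given lipopolysaccharide (LPS) through the nose and vehicle into the trachea. The OVA/LPS/GGsTop group (n = 4, OLG1 to OLG4) was handled alike but received GGsTop, an inhibitor of gamma-glutamyl transferase, in place of vehicle. The question behind the design was what OVA with LPS changes in the airway and what GGsTop changes on top of it. The labels call the tissue trachea, whereas the methods of the study describe larger airways teased away from the lung with forceps and frozen without the trachea. Whether labels such as OL12 and OL34 stand for pooled animals is not given in the sources used here, and nothing states that each library is a separate animal, so p-values measure the spread between these libraries.

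Skeletal muscle fibres shorten when myosin heavy chains of the thick filament pull on actin of the thin filament. Troponin on the thin filament switches this on when calcium is released, myosin-binding protein C braces the thick filament, and alpha-actinin ties thin filaments together at the Z-disc. Fast and slow fibres use different genes for most of these proteins: Myh1, Myh2 and Myh4 encode the fast heavy chains of adult mouse muscle, Myh7 the slow one, and Myh8 and Myh3 those of developing muscle. Heart muscle is built on the same plan from a partly separate set, led in the mouse by Myh6, but it also uses Ckm, the muscle creatine kinase, and can use Acta1, the skeletal alpha-actin. Airway wall contains smooth muscle, which lacks sarcomeres.

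The file gave FPKM, the number of sequenced fragments per kilobase of transcript, scaled to the total of the library, and the number of fragments behind each value could be recovered. The libraries held between 14513136 (OLG2) and 18632382 (PBS3) fragments in all, so depth differed little between them. Levels were also set against GC content, as the deviation of each gene from its own mean over the 11 libraries. In PBS3 this deviation rose by 0.53 on the log2 scale for every 10 points of GC content, against 0.06 in PBS1 and 0.05 in PBS2. The OVA/LPS/Vehicle libraries leaned the other way, from -0.26 in OL34 to -0.19 in OL12, and the OVA/LPS/GGsTop libraries lay between 0.05 and 0.11. The 10 members held between 47.7% (Mybpc1) and 57.0% (Acta1) GC. In bulk tissue, fewer cells of a type and less RNA per cell cannot be told apart.

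The members split into 2 sets, and the split was made after their values were seen. In the first set of 6 genes (Myh1, Myh2, Myh4, Mybpc1, Actn3 and Pvalb), no PBS and no OVA/LPS/GGsTop library reached 0.5 FPKM. The other 4 (Acta1, Ckm, Tnnt3 and Mybpc2) passed that level in libraries of all 3 groups. The start regions of 3 members are shown because they stand for both sets: Myh1 and Myh4, fast heavy chain genes that neighbour each other on chromosome 11, and Acta1 on chromosome 8. Each run is RefSeq's, GRCm38.p6, from 250 bases before to 50 bases after the start of the gene, 5′ to 3′ along the gene, with capitals for matches to the MEF2 site and the CArG box, the DNA motifs of the muscle regulators MEF2 and SRF.
Myh1, chr11:67199852-67200151, plus strand: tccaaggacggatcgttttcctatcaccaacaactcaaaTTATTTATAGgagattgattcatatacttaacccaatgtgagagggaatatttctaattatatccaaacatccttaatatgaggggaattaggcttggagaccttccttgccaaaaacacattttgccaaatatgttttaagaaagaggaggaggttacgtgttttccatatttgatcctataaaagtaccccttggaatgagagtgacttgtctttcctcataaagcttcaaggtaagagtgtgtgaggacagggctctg
Myh4, chr11:67237562-67237861, plus strand: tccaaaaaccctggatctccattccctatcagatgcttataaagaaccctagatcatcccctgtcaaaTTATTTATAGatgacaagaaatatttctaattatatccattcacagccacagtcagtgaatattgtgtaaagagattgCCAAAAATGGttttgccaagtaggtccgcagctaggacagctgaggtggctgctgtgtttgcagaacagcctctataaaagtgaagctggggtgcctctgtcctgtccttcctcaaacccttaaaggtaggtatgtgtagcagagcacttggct
Acta1, chr8:123894726-123895025, minus strand: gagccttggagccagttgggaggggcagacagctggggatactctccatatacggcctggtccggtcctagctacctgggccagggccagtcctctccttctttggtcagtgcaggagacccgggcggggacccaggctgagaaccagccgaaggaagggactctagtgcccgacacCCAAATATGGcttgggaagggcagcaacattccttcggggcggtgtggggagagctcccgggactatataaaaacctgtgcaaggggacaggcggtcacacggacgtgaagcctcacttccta
A promoter entry was matched for 8 of the 10 members, with 9 entries, 2 of them for Pvalb. Searched on both strands, the MEF2 site was found in the windows of Myh1 (first base at -211), Myh4 (-182) and 1 entry of Pvalb (-180), and in 3.19% of all 32851 promoters of the same length. The CArG box was found in Myh4 (-104) and Acta1 (-73), and in 1.63% of all promoters. The letters TATAAA stood in 4 members, at -32 in Myh1 and -31 in Myh4, and in 13.6% of all promoters; a further TATAAA on the opposite strand lies inside the MEF2 site of both Myh1 and Myh4. The E-box CANNTG, the motif of the MyoD family, was found in 6 of the 8 members and in 72.3% of all promoters. A match describes the letters alone.

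Myh1, the heavy chain of fast type 2X fibres, was the member most tied to single libraries. It stood at 0.0314, 0.0102 and 0.00845 FPKM in PBS1 to PBS3, at 0, 5.96, 1.19 and 0.0377 FPKM in OL12, OL34, OL56 and OL78, and at 0, 0, 0.0399 and 0 FPKM in OLG1 to OLG4. Of its 733 fragments over all libraries, 599 came from OL34 and 121 from OL56. OL34 and OL56 were thus the only libraries of the 11 with more than 4 fragments of Myh1, and OL12 and OL78 lay within the range of the PBS and OVA/LPS/GGsTop libraries. The limit that a count of 0 allows, 3 fragments, corresponds to between 0.0253 and 0.0325 FPKM for this gene, and such limits cover counting error only.

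Myh4, the heavy chain of the fastest type 2B fibres, stood at 0, 0.0107 and 0.0178 FPKM in PBS, at 0.172, 1.63, 0.845 and 0.00995 FPKM in OL12, OL34, OL56 and OL78, and at 0 in all 4 OVA/LPS/GGsTop libraries. Its 155 fragments in OL34, 81 in OL56 and 16 in OL12 compare with at most 2 in any other library. Myh2, the heavy chain of type 2A fibres, had 28 fragments in OL34 (0.248 FPKM) and at most 4 in any other library. The 3 genes kept 1 order in OL34, Myh1 over Myh4 over Myh2, and the same order in OL56. They are similar in sequence, since 19.7% of the windows of 50 bases in the reference transcript of Myh1 also occur in Myh2 and 10.5% in Myh4, so fragments from those stretches are uncertain between them.

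Mybpc1, the slow-type myosin-binding protein C that fast fibres also make, stood at 0, 0.0142 and 0.0119 FPKM in PBS, at 0.128, 2.04, 0.416 and 0.0132 FPKM in OL12, OL34, OL56 and OL78, and at 0, 0.0152, 0 and 0 FPKM in OLG1 to OLG4. Pvalb, the calcium buffer parvalbumin of fast fibres, was at 0 in all 3 PBS libraries, at 0.682, 2.49, 0.482 and 0.115 FPKM in the OVA/LPS/Vehicle libraries and at 0, 0.0662, 0 and 0 FPKM in OLG1 to OLG4. Its 63 fragments are few, with 11 in OL12, 41 in OL34 and 8 in OL56. For Pvalb, alone among the 10 members, OL12 was above OL56.
Actn3, the alpha-actinin of fast fibres, differed in having a low level everywhere. It stood at 0.160, 0.133 and 0.259 FPKM in PBS, at 0.378, 5.12, 0.497 and 0.0206 FPKM in OL12, OL34, OL56 and OL78, and at 0.275, 0.285, 0.262 and 0.116 FPKM in OLG1 to OLG4. OL78 was its lowest library, with 1 fragment. All 6 genes were therefore highest in OL34, which held between 60.5% (Myh4) and 81.7% (Myh1) of each gene's fragments over the 11 libraries.

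**Figure D1:**
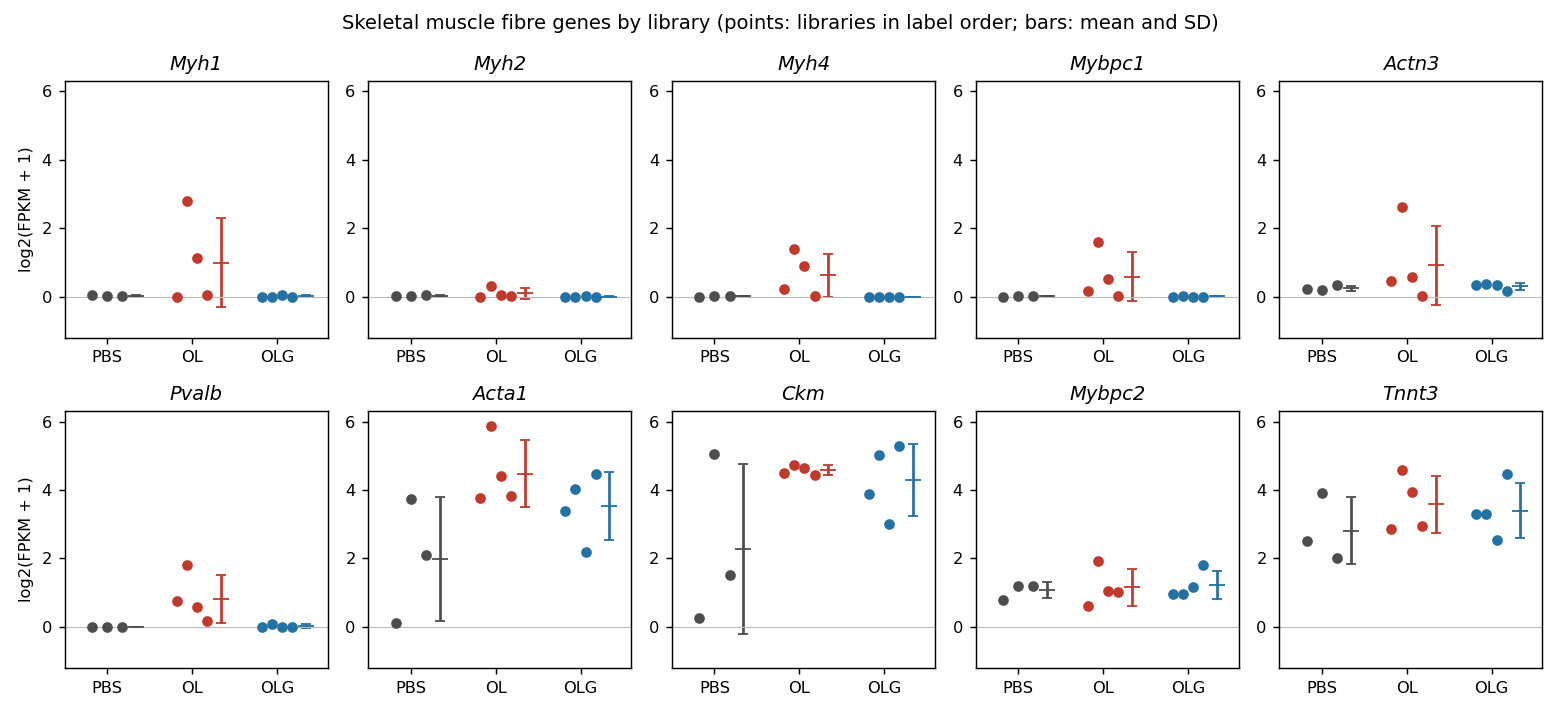
Level of each member in each library, as log2(FPKM + 1), for PBS, OVA/LPS/Vehicle (OL) and OVA/LPS/GGsTop (OLG). Points are libraries in label order and bars the mean with its SD (n = 3, 4 and 4); the 6 genes of the first set are highest in OL34 (5.96 FPKM for Myh1), and all of them but Myh2 are also above every PBS and OVA/LPS/GGsTop library in OL56 (1.19 FPKM for Myh1), while Acta1, Ckm and Tnnt3 are present in all groups and lowest among PBS libraries.

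Summed over the 6 genes, the level was 0.201, 0.178 and 0.327 FPKM in PBS, 1.36, 17.5, 3.46 and 0.205 FPKM in OL12, OL34, OL56 and OL78, and between 0.116 and 0.366 FPKM in OVA/LPS/GGsTop. OL78 thus lay among the PBS and OVA/LPS/GGsTop libraries, while OL34 was more than 5 FPKM above every other library. Over the libraries the 15 pairs among the 6 genes had Pearson r between 0.86 and 0.99 on log2(FPKM + 1), which describes 11 libraries that share OL34 as their extreme point. Genes of the thyroid and parathyroid glands, which lie against the trachea, moved with these libraries. Tg, the thyroglobulin of the thyroid, stood at 90.6, 166, 303 and 0.256 FPKM in OL12, OL34, OL56 and OL78 and at no more than 1.44 FPKM in the 7 libraries of the other groups. Pth, parathyroid hormone, stood at 5.997, 91.8, 224 and 0 FPKM in the same 4 libraries and at no more than 0.468 FPKM elsewhere. The 10 thyroid and parathyroid genes summed to 108, 293, 616 and 7.31 FPKM in the OVA/LPS/Vehicle libraries, against 6.56 to 8.97 FPKM in PBS and 5.73 to 10.5 FPKM in OVA/LPS/GGsTop. In OL78 both the sum of the 6 members and Tg and Pth lay within the range of the PBS and OVA/LPS/GGsTop libraries, whereas Pvalb on its own was above them there (0.115 FPKM, 2 fragments). They differed in order, since Tg, Pth and the sum of the thyroid and parathyroid list were highest in OL56 and the sum of the 6 members in OL34. The part of neighbouring tissue in the levels of the members was not tested.

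Ckm, the creatine kinase that regenerates ATP in muscle, had the highest mean of the 10, 19.7 FPKM. It stood at 0.205, 32.3 and 1.88 FPKM in PBS1 to PBS3, at 21.5, 25.8, 24.1 and 20.8 FPKM in OL12, OL34, OL56 and OL78, and at 13.9, 31.3, 7.03 and 37.9 FPKM in OLG1 to OLG4. The OVA/LPS/Vehicle libraries sat close together (23.0 ± 2.31, SD, n = 4), inside the range of PBS (11.4 ± 18.05, n = 3) and of OVA/LPS/GGsTop (22.5 ± 14.5, n = 4). PBS2 was above all 4 OVA/LPS/Vehicle libraries, whereas PBS1 held 9 fragments of Ckm and PBS3 held 102. In the reference annotation, 15.5% of the exon bases of Ckm lie under exons of A930016O22Rik, and the sources used here do not give whether counting used strand.

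Acta1, the actin of the skeletal thin filament, stood at 0.0864, 12.2 and 3.28 FPKM in PBS, at 12.6, 58.0, 20.2 and 13.3 FPKM in OL12, OL34, OL56 and OL78, and at 9.47, 15.4, 3.55 and 21.2 FPKM in OLG1 to OLG4. It shares features of both sets: PBS1 and PBS3 were low, as for Ckm, and OL34 was high, as for Myh1. The OVA/LPS/Vehicle and PBS libraries did not overlap, but PBS2 and OL12 differed by under 1 FPKM. In this comparison 38.0% of all 14004 genes tested were called different, a share that does not measure overlap. The share of all genes without overlap is not given here. No window of 50 bases in the transcript of Acta1 occurs in Actc1, the heart actin, or in Acta2, that of smooth muscle, so identical stretches of that length with those abundant actins do not arise.

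Tnnt3, the troponin T of fast fibres, stood at 4.66, 13.9 and 3.05 FPKM in PBS, at 6.19, 23.1, 14.3 and 6.73 FPKM in OL12, OL34, OL56 and OL78, and at 8.81, 8.88, 4.76 and 21.0 FPKM in OLG1 to OLG4. All 3 groups overlapped. Mybpc2, the fast-type myosin-binding protein C, was the steadiest member, at 0.735, 1.30 and 1.31 FPKM in PBS, 0.536, 2.77, 1.06 and 1.04 FPKM in the OVA/LPS/Vehicle libraries and 0.956, 0.954, 1.23 and 2.51 FPKM in OLG1 to OLG4. OL12 was its lowest library and OL34 its highest.

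These 4 genes were set beside 12 heart muscle genes. Myh6, the alpha heavy chain of the mouse heart, stood at 1.45, 321 and 12.6 FPKM in PBS1 to PBS3, at 192, 122, 171 and 192 FPKM in OL12, OL34, OL56 and OL78, and at 179, 376, 93.9 and 435 FPKM in OLG1 to OLG4. Summed over the 12 genes, of which Myl7 was the most abundant (mean 504 FPKM) and none was at 0 in every library, the level was 97.6, 2024 and 145 FPKM in PBS and between 626 and 2727 FPKM in all other libraries. Ckm followed the mean of these genes with Pearson r = 0.98 over 11 libraries, and with r = 0.92 without the 2 libraries farthest from the median. Acta1 followed it with r = 0.83 (0.44 without those 2), Tnnt3 with 0.68 (0.43) and Mybpc2 with 0.22 (0.04), while the 5 genes of the first set that averaged 0.1 FPKM or more had r between 0.05 and 0.19. The heart genes were not the only list that these members followed. With the mean of 9 airway epithelium genes, r was 0.89 for Ckm (0.82 without the 2 libraries farthest from the median), 0.86 for Acta1 (0.82) and 0.82 for Tnnt3 (0.69), for the last 2 closer than with the heart genes. These values describe 11 libraries that share their method of dissection. Set against the label of skeletal muscle fibre, in OL34 all 6 genes of the first set were above every PBS and OVA/LPS/GGsTop library, in OL56 all but Myh2 (3 fragments, against 4 in PBS3), and in OL12 Myh4, Mybpc1, Actn3 and Pvalb (16, 9, 17 and 11 fragments). Ckm reached 32.3 FPKM in PBS2 and 37.9 FPKM in OLG4, libraries with 1 and 0 fragments of Myh1.

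**Figure D2:**
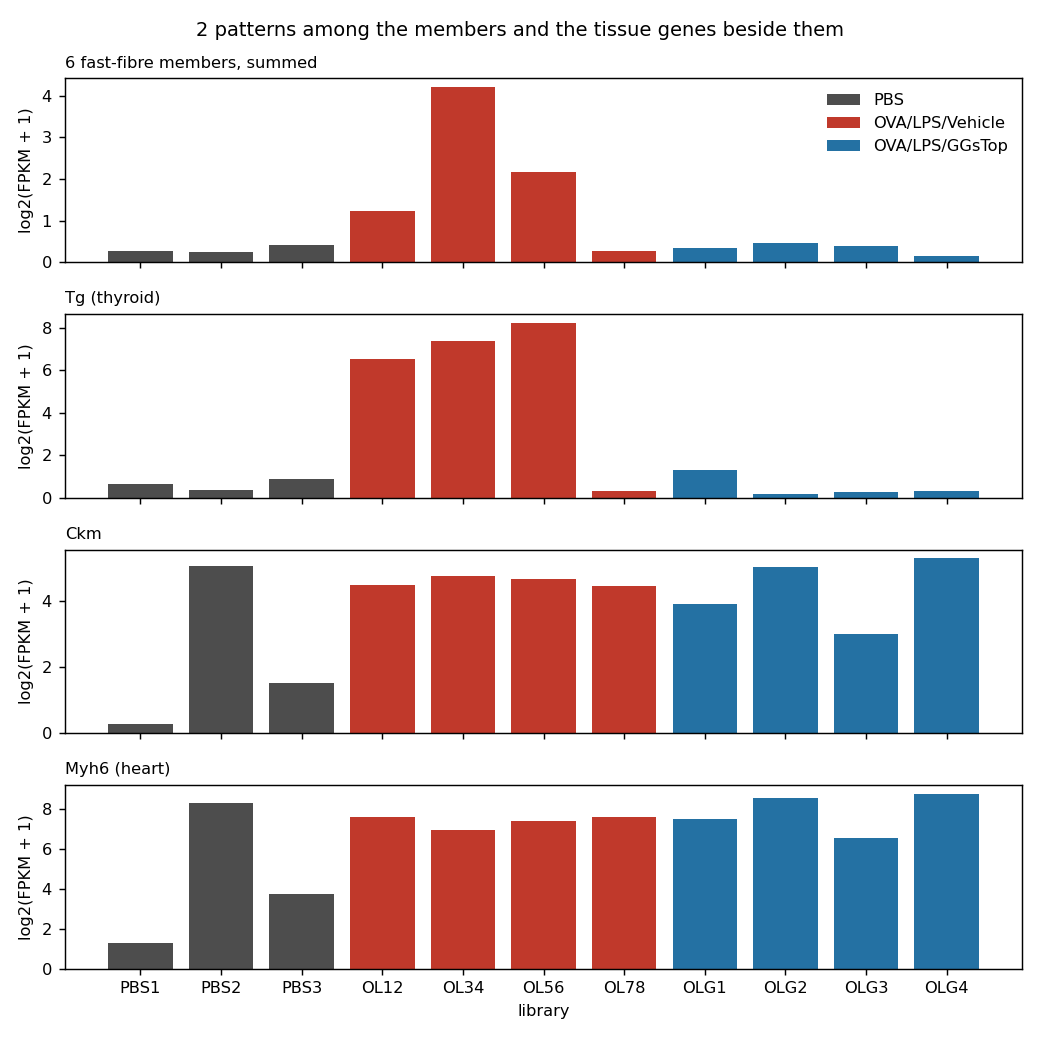
Level by library, as log2(FPKM + 1), of the 6 members of the first set summed, of Tg, of Ckm and of Myh6. Bars start at 0 and are coloured by group. The sum of the 6 genes is highest in OL34 (17.5 FPKM) and near baseline in OL78 (0.205 FPKM), as is Tg (0.256 FPKM), whereas Ckm and Myh6 are low in PBS1 (0.205 and 1.45 FPKM) and PBS3 and high in PBS2.

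Differences between group means are given on the scale of log2(FPKM + 1), which understates the change of low genes, and carry no test. Acta1 was higher in OVA/LPS/Vehicle than in PBS by 2.49 (SE 0.80) and Ckm by 2.30 (SE 0.90). Tnnt3 differed by 0.78 (SE 0.55), Myh1 by 0.97 (SE 0.52), Actn3 by 0.68 (SE 0.46) and Mybpc2 by 0.08 (SE 0.29). These 6 members passed the minimum mean of 0.5 FPKM, Myh1 and Actn3 only through the group where they were high; Myh2, Myh4, Mybpc1 and Pvalb did not pass it. Without PBS1 and PBS3, the difference was 0.75 for Acta1, -0.47 for Ckm and -0.32 for Tnnt3. Without OL34 and OL56 it was 0.003 for Myh1, 0.004 for Actn3, 0.09 for Tnnt3 and -0.24 for Mybpc2, but 1.82 for Acta1 and 2.19 for Ckm. Thus 2 PBS libraries carried the difference of Ckm, and 2 OVA/LPS/Vehicle libraries that of Myh1.

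Between OVA/LPS/GGsTop and OVA/LPS/Vehicle, the difference was -0.95 (SE 0.74) for Acta1, -0.98 (SE 0.48) for Myh1, -0.62 (SE 0.43) for Actn3, -0.28 (SE 0.83) for Ckm, -0.19 (SE 0.51) for Tnnt3 and 0.07 (SE 0.27) for Mybpc2. Without OL34 and OL56 these became -0.28 for Acta1, -0.01 for Myh1, 0.06 for Actn3, -0.17 for Ckm, 0.50 for Tnnt3 and 0.40 for Mybpc2. Between OVA/LPS/GGsTop and PBS, Ckm was higher by 2.01 (SE 0.90) and Acta1 by 1.54 (SE 0.80). These turned to -0.76 and -0.20 without PBS1 and PBS3, which leaves PBS2 alone in its group. By equal replicate number, Acta1 was higher in OVA/LPS/GGsTop each time (9.47 against 0.0864, 15.4 against 12.2 and 3.55 against 3.28 FPKM). Ckm was not, with 31.3 FPKM in OLG2 against 32.3 FPKM in PBS2. The 3 group comparisons share libraries, so their differences are not independent of each other.

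The sarcomeric myosin heavy chains can be set on 1 scale, since FPKM allows for gene length. The heart chain Myh6 made up most of their sum in every library but PBS1. The shares of the fast chains thus also depend on the level of Myh6 and do not give the fibre types of skeletal muscle. Myh1, Myh2 and Myh4 together made up 5.76% of the summed FPKM of 9 heavy chain genes in OL34, 1.17% in OL56, 0.0882% in OL12 and 0.0288% in OL78. In OLG1, OLG2 and OLG4 no fragment of the 3 was found, and in OLG3 they made up 0.0502%, from 5 fragments. PBS1 reached 0.985% on 4 fragments and PBS3 0.310% on 7, both above OL12 and OL78; their heavy chains summed to 4.13 and 18.2 FPKM only. PBS2 stood at 0.00922%, on 3 fragments. Myh6 made up 89.3% of the sum in OL34 and 35.1% in PBS1, against 69.2% in PBS3 and at least 96.7% in each of the other 8 libraries. Myh8, the perinatal heavy chain, stood at 4.66 FPKM in OL34 and 0.975 FPKM in OL56 and at no more than 0.0287 FPKM elsewhere; 9.67% of the windows of 50 bases in Myh1 also occur in it. Myh7, of slow fibres and heart, ranged from 1.37 (OL56) to 5.26 FPKM (PBS3), and Myh3, the embryonic chain, stayed at or under 0.0628 FPKM.

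**Figure D3:**
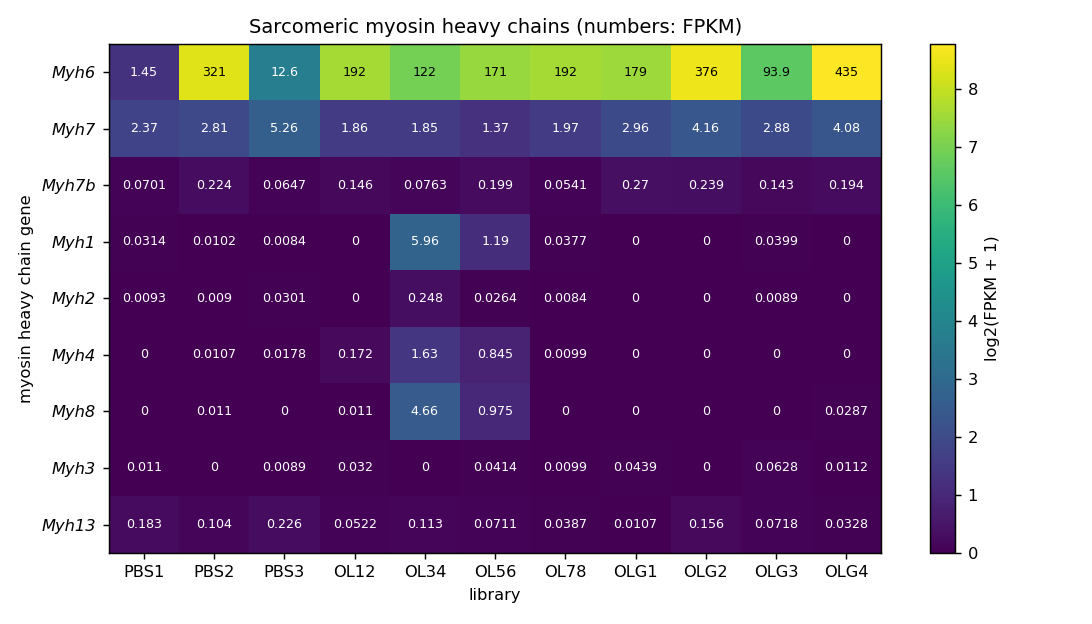
FPKM of 9 sarcomeric myosin heavy chain genes in each library, coloured by log2(FPKM + 1). Myh6 exceeds every other chain in 10 of 11 libraries, PBS1 being the exception, and Myh1, Myh4 and Myh8 stand out in OL34 (5.96, 1.63 and 4.66 FPKM) and OL56.

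A further 89 skeletal muscle genes, in 8 lists, show what else of the fibre was present. Of these, the 56 whose mean over the libraries reached 0.5 FPKM were tested with limma (Benjamini-Hochberg adjustment over 14004 genes, called at an adjusted p under 0.05). Between OVA/LPS/Vehicle and PBS, 38.0% of all genes tested were called, 15.9% higher and 22.1% lower. Of the 56, 15 rose and 5 fell, or 35.7%, a share near that background; their median difference was 0.93, against -0.01 over all genes tested. Voom on the recovered fragments called 27 of 52, 22 higher and 5 lower (51.9%), with a median difference of 1.72 on its own log2 scale of fragments scaled to library size, and 5382 of all 13677 genes it tested. By list, in the limma fit, 5 of 17 sarcomere scaffold genes, 3 of 7 slow fibre and 3 of 12 energy metabolism genes rose. So did 2 of 9 excitation-contraction coupling and 1 of 4 fast fibre genes. Falls were 1 gene each in the slow fibre, energy metabolism and excitation-contraction coupling lists, and 2 of 3 in that of the neuromuscular junction. Myh8, the only developmental myosin tested, was called by neither limma nor voom (0.87, SE 0.47). It passed the minimum mean only through the group where it was high.

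Among those that rose, Mb, the oxygen-binding myoglobin, differed by 3.48 (SE 1.26, adjusted p = 0.0486, limma), Tcap, which caps titin, by 2.97 (SE 1.03, adjusted p = 0.0414) and Tnnc1, the troponin C of slow fibres and heart, by 2.98 (SE 1.06, adjusted p = 0.0455). Myl1, a light chain of fast fibres, rose by 2.39 (SE 0.76, adjusted p = 0.0304), and Trdn, triadin of the calcium release unit, by 1.63 (SE 0.40, adjusted p = 0.0113). The others that rose included Myoz2, Myl3, Lmod2, Csrp3, Smpx, Klhl41, Ckmt2, Cox7a1 and Jph1. Mb, Tcap, Tnnc1, Myl3, Myoz2, Csrp3, Ckmt2 and Trdn are also genes of the heart. In PBS1, PBS2 and PBS3, Mb stood at 0, 107 and 2.59 FPKM, and Tcap at 1.05, 119 and 5.27 FPKM. Those that fell were Chrnb1, a subunit of the acetylcholine receptor (-0.75, SE 0.20, adjusted p = 0.0165, limma), Myh7 (-0.65, SE 0.20, adjusted p = 0.0272), Fbp2, Colq and Stac3.
Without PBS1 and PBS3, which leaves PBS2 alone in its group, none of the 57 muscle genes then tested was called by limma (3 had an unadjusted p under 0.05, and 30 of all genes were called), 6 of the 15 that rose with all libraries were still above 0, and the median difference was -0.37. Without OL34 and OL56 none of 55 was called either, with 10 at an unadjusted p under 0.05, although 131 of all genes were; here the calls went but not the difference, since 42 of the 55 were above 0 and the median was 1.06. Leaving out 1 PBS library at a time moved the 20 calls to 2 without PBS3, 3 without PBS1 and 46 without PBS2. Leaving out 1 OVA/LPS/Vehicle library moved them to 4, 6, 7 and 13 without OL56, OL78, OL34 and OL12. Over all genes, these fits called from 3057 (without PBS3) to 6439 (without PBS2). A correction for GC content left 8 muscle genes called, with a median difference of 1.05 and 47 of the 56 above 0. Over the 11 libraries, 36 of the 56 genes had Pearson r over 0.8 with the mean of the heart genes. With the mean of the 6 members of the first set, a mean chosen after the values were seen, 2 had it, Myh8 (0.99) and Mylpf (0.93). These counts cover only genes that passed the minimum of 0.5 FPKM. Of the listed muscle genes that averaged from 0.1 FPKM up to that minimum, Cacng1 (0.97), Myoz1 (0.97), Myot (0.96), Neb (0.92) and Jsrp1 (0.89) also had r over 0.8 with the mean of the 6, and none had it with the heart genes. All of these, with Myh8 and Mylpf, were highest in OL34, on which Pearson r leans. By Spearman's rho, which uses ranks, the values ran from 0.18 (Jsrp1) to 0.51 (Myoz1), with Myh8 at 0.35 and Mylpf at 0.76.

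**Figure D4:**
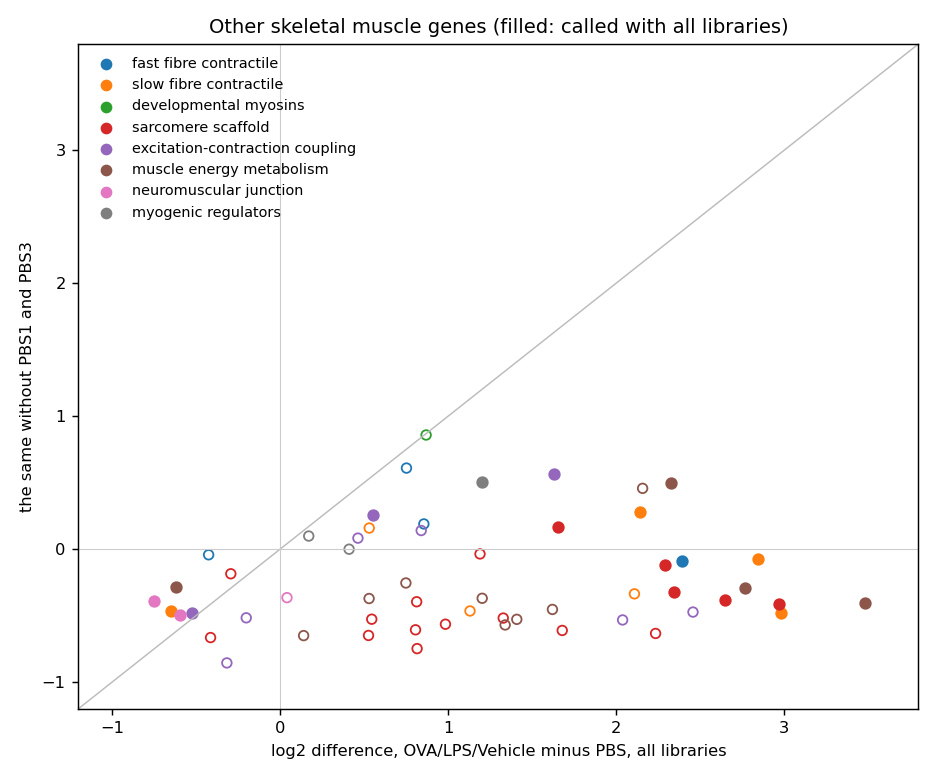
Log2 difference between OVA/LPS/Vehicle and PBS for 56 skeletal muscle genes outside the 10 members, with all libraries (horizontal axis) and without PBS1 and PBS3 (vertical axis), coloured by list, filled where called by limma with all libraries. With all libraries 46 of the 56 lie above 0, and without PBS1 and PBS3 15 do; the line marks equal values.

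Between OVA/LPS/GGsTop and OVA/LPS/Vehicle, 8.71% of genes were called, 6.90% higher and 1.81% lower. Of the 56, Myh7 was called higher (0.70, SE 0.19, adjusted p = 0.0422, limma) and none lower, 4 having an unadjusted p under 0.05, and voom on the recovered fragments called 1 of 52. The call of Myh7 was lost whenever any 1 OVA/LPS/Vehicle or OVA/LPS/GGsTop library was left out. Between OVA/LPS/GGsTop and PBS, 2.88% were called, 2.06% higher and 0.821% lower. None of the 56 was called there by limma or by voom, but 27 had an unadjusted p under 0.05, as had 20.5% of all genes tested. Without PBS2, 35 of the 56 were called by limma, beside 1588 of all genes. Without OLG3, 2 were called, and the count over all genes in that fit is not given here.

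The most abundant genes of each list show which machinery the libraries held. By mean FPKM over the 11 libraries, the slow fibre list was led by Atp2a2 (184), the calcium pump of slow fibres and heart, Tnnc1 (69.8) and Myoz2 (20.3), and the sarcomere scaffold list by Tcap (102), Des (95.6), the filament protein desmin that smooth muscle also makes, and Csrp3 (31.0). Cox6a2 (71.2), Mb (64.3) and Cox8b (54.8) led energy metabolism, and Jph2 (21.1), Hrc (17.5) and Srl (15.1) led excitation-contraction coupling. The fast fibre list was led by Myl1 (16.4), Tmod4 (8.36) and Tnni2 (4.05), of which Tmod4 was higher in PBS1 (11.4 FPKM) than in OL34 (5.60 FPKM). Chrnb1 (12), Colq (9.15) and Rapsn (0.842) led the neuromuscular junction, and the regulators included Mef2c (4.02) and Msc (0.674).

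Of the 9 fast fibre genes outside the 10 members, 3 were highest in OL34, namely Mylpf, Tnni2 and Myoz1. Mylpf, a light chain of fast fibres, stood at 18.6 FPKM in OL34 and 5.08 FPKM in OL56, against 0.789 to 3.34 FPKM elsewhere. Tnni2, the fast troponin I, reached 16.6 FPKM in OL34 and 6.62 FPKM in OL56, but also 5.69 FPKM in OLG4 and 3.71 FPKM in PBS2. Myoz1, a Z-disc protein of fast fibres, stood at 2.74 FPKM in OL34 and 0.961 FPKM in OL56. The others did not share that order. Myl1, the most abundant, stood at 19.7 FPKM in OL34 against 23.7 FPKM in OL12, 23.5 FPKM in PBS2 and 26.1 FPKM in both OL56 and OLG4. Its r over 11 libraries was 0.98 with the mean of the heart genes and 0.25 with that of the 6 members of the first set. Tmod4, which caps thin filaments, ran the other way (r = -0.54 with the mean of the 6) and was lowest in OL34. Mybph was highest in OLG4 (0.783 FPKM), Mylk2 in OLG1 (0.698 FPKM) and Myh13 in PBS3 (0.226 FPKM). Tnnc2, the troponin C that pairs with Tnni2 and Tnnt3, was listed at 0 in 10 libraries and at 0.0792 FPKM in OLG3. In the reference annotation, 74.0% of its exon bases lie under exons of Ube2c, and 67.9% of those of Tagln, an abundant smooth muscle gene listed at a mean of 0.474 FPKM, lie under exons of Pcsk7 and Gm48529, so a low value in this file need not mean that the RNA was low. The regulators that make muscle precursors, Myod1, Myog, Myf5, Myf6 and Pax7, stayed at or under 0.211 FPKM in every library, and Chrng, of the fetal acetylcholine receptor, was at 0 in all 11.

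The genes most like the mean of the 10 members over the 11 libraries were Tnni2 (Pearson r = 0.92), Tmem17 (0.90), 1700019D03Rik (0.88), Atp2a1 (0.86), the calcium pump of fast fibres, Fam19a1 (0.85), Rassf6, Cldn8, Irak1bp1, Slc35f5 and Ttc6. None of the 10 was among the first 10 when OL34 was left out, and none by Spearman's rho.

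Marker genes of other tissues were set beside the members, in the comparison of OVA/LPS/Vehicle with PBS by limma. The counts of called genes are to be read against the 15.9% of all genes tested that were called higher and the 22.1% called lower. Of 12 heart genes 4 rose (Myl4, Tnni3, Tnnt2 and Pln). Of 6 thyroid and parathyroid genes tested, Tg rose (4.99, SE 1.43, adjusted p = 0.0201, limma). Pth was also called higher (4.22, SE 1.40), though voom called neither. Pth passed the minimum mean of 0.5 FPKM only through OVA/LPS/Vehicle, where it was high, so its difference is given as a description. Smooth muscle, led by Acta2 (mean 318 FPKM), summed to 680 ± 93.7 FPKM in PBS, 509.5 ± 24.96 in OVA/LPS/Vehicle and 719 ± 269 in OVA/LPS/GGsTop (SD); 2 of 9 genes fell (Actg2 and Smtn). Squamous epithelium of the oesophagus stayed near 0, its list summing to at most 4.76 FPKM with Sprr3 at 0 in every library, and none of 3 genes was called by limma or voom (0 at an unadjusted p under 0.05). Fat genes, led by Ucp1 (mean 77.0 FPKM), summed highest in OL12 (642 FPKM). Of 8 fat genes 1 was called higher (Elovl3, 0.94, SE 0.34), though voom called none of the 8. Elovl3 too passed the minimum mean only through the group where it was high, so its difference is a description. Cartilage summed to 88.9 FPKM in PBS2 and 92.6 FPKM in OLG4 but to no more than 1.94 FPKM in PBS3, OLG1 and OLG3, with 0 of 8 called by limma or voom and 0 at an unadjusted p under 0.05. Scgb1a1, of the airway epithelium, had a mean of 39176 FPKM, and Sftpc, of the alveolar epithelium, which belongs to the lung and not to the trachea of the label, had 7150 FPKM; 4 of 9 airway genes rose (Scgb3a2, Bpifb1, Dynlrb2 and Foxj1) and 2 of 7 alveolar genes fell (Sftpb and Ager). Of 4 tendon genes Scx fell. The part of any of these tissues in the levels of the 10 members was not tested.

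**Figure D5:**
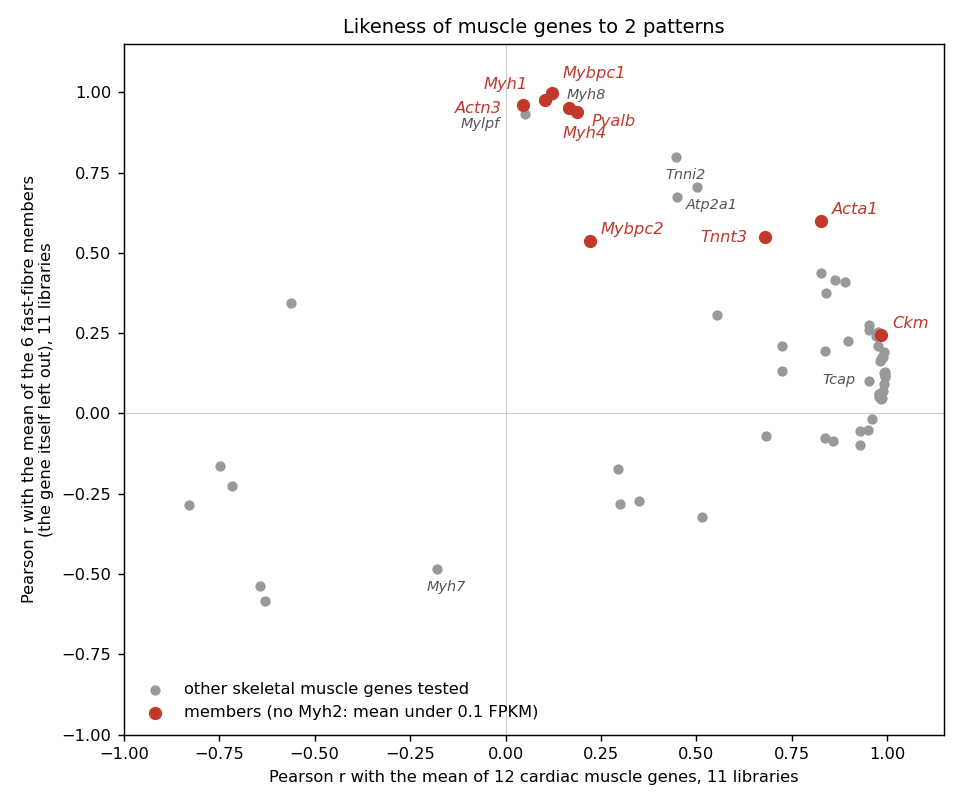
Pearson r over 11 libraries of each gene with the mean of 12 heart genes (horizontal) and the 6 members of the first set (vertical). In the latter the gene itself is left out. Shown are 9 members (red) and the 56 other skeletal muscle genes tested (grey). Ckm lies at the right edge (0.98 with the heart genes), 5 members of the first set lie at the top, and Acta1, Tnnt3 and Mybpc2 lie between.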

How the data were processed

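RNA from 11 airway samples was sequenced after poly-A selection. Per the labels and the submitters' processing notes, reads were trimmed with cutadapt 1.15, aligned with HISAT2 2.0.5 and counted with HTSeq 0.9.1 on mm39; the role of each tool is read from its name, and the use of strand is not given in the sources used here. The authors deposited 1 table of FPKM values per gene and library. Gene IDs were paired with symbols for 21795 of 21899 genes through a GRCm38 annotation (GENCODE M21), which also gave the exon lengths and the overlaps between exons but no printed coordinates; promoter windows and their coordinates are RefSeq's on GRCm38.p6. FPKM multiplied by exon length and by the library total that the steps between low values imply gave whole fragments, within 0.02 fragments, in every library for 97.8% of genes.

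The 14004 genes whose mean over the libraries reached 0.5 FPKM were tested in 1 limma 3.58.1 model of the 3 groups (R 4.3.3) on log2(FPKM + 1), with a mean-variance trend and Benjamini-Hochberg adjustment; calls have an adjusted p under 0.05. The fit was tested on simulated data, and the outcome is not reported here. The study's DESeq test was not used as the main test, since the file holds no counts; voom on recovered fragments is an alternative. Python 3.11.15 was used for all else.

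The members and gene lists were chosen with earlier results of these data known. The text names all members, the most abundant and the called genes of the muscle lists, those called or most abundant in other lists, and the 10 genes most like the members' mean; Myoz1, Mylpf, Tnnc2, Mybph, Mylk2, Myh13, Cacng1, Myot, Neb, Jsrp1, Tagln, Sprr3, Chrng, Myh3, Myod1, Myog, Myf5, Myf6 and Pax7 were singled out after their values were seen. Some genes that this rule would name are not reported here. Replicate numbers 1 to 3 are shared by PBS and OVA/LPS/GGsTop. Their deviations from the group means correlated over genes with r = 0.16, 0.62 and 0.40 for equal numbers, so the pairing was tried as a block, although PBS1 and OLG3 had r = 0.42 and the labels state no shared source. The block gave 62 calls between these groups in place of 403.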

Additional observations from a re-analysis of the deposited data

Results flagged for a closer look

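Within groups of 4 libraries, 19 combinations of member and group were examined. In 8 of them the highest or lowest library lay apart from the other 3 by more than 0.829 of the group's range. Chance passes that limit in about 1 of 20 groups only where values are normally distributed. That rate does not hold for FPKM near 0, since 1 fragment passes the limit where the other 3 libraries are at 0. In OVA/LPS/Vehicle the library apart was OL34 each time, for Acta1 (58.0 FPKM), Myh2 (0.248 FPKM) and Actn3 (5.12 FPKM). In OVA/LPS/GGsTop the values set apart rest on few fragments. They were Myh1 in OLG3 (0.0399 FPKM, 4 fragments), Myh2 in OLG3 (0.00888 FPKM, 1 fragment), Mybpc1 in OLG2 (0.0152 FPKM, 1 fragment) and Pvalb in OLG2 (0.0662 FPKM, 1 fragment), where the other 3 libraries were at 0, and Actn3 in OLG4, which was low (0.116 FPKM, 5 fragments against 12 in each of the other 3). Members of 1 library are not independent of each other, and no cause was tested.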

How the results depend on the processing

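Between OVA/LPS/Vehicle and PBS, where limma called 5327 genes and 20 of the other skeletal muscle genes, the counts were 2904 and 8 after a GC correction, 44 muscle genes with array weights, 12 with a fit of these 2 groups only, 131 and 0 without OL34 and OL56, and 30 and 0 without PBS1 and PBS3. Of all 14004 genes tested, 7916 were called with array weights and 4381 with the fit of these 2 groups only. The 44 and 12 muscle genes are to be read against those counts. Leaving out 1 library gave 3057 (without PBS3) to 6439 (without PBS2) genes and 2 (without PBS3) to 46 (without PBS2) muscle genes. Without PBS1 and PBS3, 9 of the muscle genes that had risen turned negative: Ckmt2 (-0.29), Csrp3 (-0.38), Lmod2 (-0.32), Mb (-0.40), Myl1 (-0.0902), Myoz2 (-0.0703), Smpx (-0.12), Tcap (-0.41) and Tnnc1 (-0.48). Between OVA/LPS/GGsTop and OVA/LPS/Vehicle, where 1220 genes and 1 muscle gene were called, the counts were 698 and 0 with the medians of the libraries set equal, 5214 and 6 with array weights, 3525 and 4 with 2 groups only, 56 and 0 after the GC correction, 1 and 0 without OL34 and OL56, and 0 muscle genes with no filter. Leaving out 1 library gave 24 (without OLG1) to 1052 (without OLG4) genes and 0 muscle genes each time. Between OVA/LPS/GGsTop and PBS, where 403 genes and 0 muscle genes were called, the counts were 208 with no filter, 2557 and 36 with array weights, 39 with 2 groups only, and 0 without PBS1 and PBS3. Leaving out 1 library gave 28 (without PBS1) to 1588 (without PBS2) genes and 0 to 35 muscle genes. The replicate block gave 62 genes, the block with the GC correction 403, and neither changed a call of a muscle gene. The settings without 2 libraries were chosen after seeing the data, and where they leave 1 library in a group it is assumed to vary as the other groups do; the cause of the other changes was not tested. Values of low members depended on the scale: the difference of Myh1 between OVA/LPS/Vehicle and PBS was 0.97 with a pseudocount of 1, 2.30 with 0.1 and 3.39 with voom. Depth limits Myh2, Mybpc1 and Pvalb, which had 39, 189 and 63 fragments in all.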
